A study of Mus musculus with 12 samples.

Results

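The 34 genes described here control the translation of messenger RNA: factors of initiation and elongation, the poly(A)-binding protein Pabpc1, and the kinases and switches around mTOR. They were chosen by symbol as genes of translation control relevant to the loss of FMRP, and each matched 1 of the 52550 features of the count table. The choice was made with earlier results of these data known, so the shares of members given below are descriptions. All 34 passed the filter on low counts. The RNA was bound to ribosomes of cortical astrocytes, pulled down by TRAP (translating ribosome affinity purification) through an eGFP-tagged ribosomal protein. The knockout (KO) libraries came from Fmr1−/y mice and the wild-type (WT) libraries from Fmr1+/y mice, all males at postnatal day 40 on a mixed FVB/C57 background, from somatosensory cortex. Mice of both genotypes carried the Aldh1l1-TRAP transgene, so the tagged ribosomes were made where the Aldh1l1 promoter, used to drive genes in astrocytes, was active. Fmr1 encodes FMRP, an RNA-binding protein whose loss causes fragile X syndrome. There were 3 KO libraries, numbered 14, 16 and 18, and 3 WT libraries, numbered 13, 15 and 17. The labels do not say that each came from a separate animal, so the p-values measure only the spread between these libraries.

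Translation of most messages begins when eIF4E binds the 5′ cap and, with the scaffold eIF4G and the helicase eIF4A, recruits the small ribosomal subunit. The kinase mTOR, within a complex that contains raptor, is switched on by the small GTPase Rheb at the lysosome and held back by the TSC1 and TSC2 proteins, which inactivate Rheb. Active mTOR phosphorylates the 4E-BP proteins, which then release eIF4E, and the S6 kinases. In neurons, FMRP represses the translation of many messages, and excess signalling through mTOR and the kinases that act on eIF4E has been reported in Fmr1 knockout mice. Most of this control works through phosphorylation of proteins, which RNA levels do not measure.

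Total counts ran from 10953958 to 21696862 in the KO libraries and from 19787520 to 22397202 in the WT libraries. Features that collect reads of ribosomal RNA (CT010467.1, Lars2 and AY036118) made up 35.6% and 45.1% of all counts from KO libraries 14 and 16, against 0.892% in KO library 18 and 0.939% to 7.45% in the WT libraries. Fmr1 stood at 1.32 to 4.32 CPM (counts scaled to library size by TMM) in KO and 31.6 to 38.4 CPM in WT. The 8 astrocyte markers (Aqp4, Slc1a2 and others) were found in every library and summed to 14445 to 18586 CPM in KO and 15022 to 19161 CPM in WT. The 8 neuron markers summed to 1508 to 2011 CPM in KO and 1093 to 1948 CPM in WT, so neuronal RNA was present in the pull-down of both genotypes. The 8 microglia markers summed to 27.5 to 34.7 CPM in KO and 37.2 to 39.4 CPM in WT, and the 8 endothelial markers to 6.44 to 15.6 CPM in KO and 8.43 to 13.7 CPM in WT.

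Across the 34 genes, RNA levels in KO lay close to those in WT, with the exception of Rhebl1, a relative of the mTOR activator Rheb. Its mean level was higher in KO by 1.301 on the log2 scale, but it did not pass the test over all genes. Fmr1, the targeted gene, had a log2 fold change of -3.53 (SE 0.41) and ranked 1 by p, and it did not pass either (adjusted p = 0.29983, edgeR quasi-likelihood), so failing this threshold does not show that a gene was unchanged. The other 33 genes had log2 fold changes between -0.13 and 0.15, with standard errors (SE) between 0.12 and 0.21. None of the 34 passed edgeR's quasi-likelihood test at an adjusted p of 0.05, where 0% of all 14990 genes tested were called (0 genes). DESeq2 called 0 of the 34 as well, against 0.0290% of all genes it tested. Rhebl1 was the 1 member at an unadjusted p under 0.05 in either test, a share of 2.94% beside 1.77% of all genes by the quasi-likelihood test and 1.32% by DESeq2. Of the 34, 14 were higher and 20 lower in KO, so that 41.2% were higher, against 49.6% of all genes. The median log2 fold change was -0.015 over the members and -0.0019 over all genes. In 2 members, Rhebl1 and Eef1a1, the libraries of the genotypes did not overlap. That is 5.88% of the members, beside 6.20% of all genes. Rhebl1 was higher without overlap, as were 2.95% of all genes, and Eef1a1 lower, as were 3.25%.

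**Figure D1:**
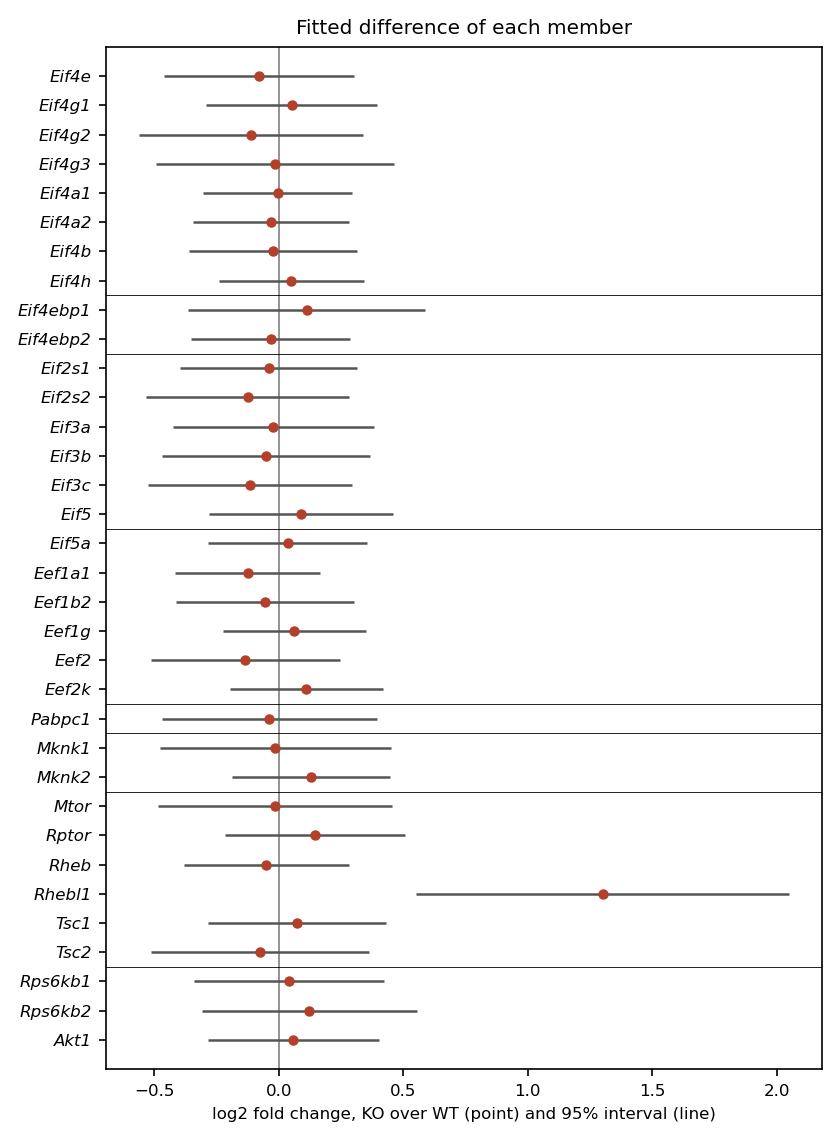
Fitted log2 fold change, knockout over wild type, of each of the 34 genes (points) with its 95% interval (lines), grouped by role between the thin lines. The interval of Rhebl1 runs from 0.55 to 2.05 and lies above 0, and the intervals of the other 33 genes include 0.

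The intervals show, for each gene by itself, what sizes of change the fit to all 6 libraries left possible. They are not joint bounds over the 34 genes. For 32 of the 34 genes the 95% interval for the fold change stayed within 1.5-fold in either direction. The exceptions were Rhebl1 and Eif4ebp1, whose interval reached 1.504. Among the 33 genes other than Rhebl1, the lowest bound was a fold of 0.677, for Eif4g2. In bulk RNA of this kind, fewer cells of a type and less RNA per cell cannot be told apart.

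The promoters held 1 feature that played no part in the choice of genes. The E-box CACGTG is the sequence bound by MYC and by the lysosomal regulators TFEB and TFE3, and its letters read the same on both strands. RefSeq promoter windows (GRCm38.p6, 250 bases before to 50 after an annotated start) were matched by symbol for 28 of the 34 genes. Of these, 10 held CACGTG in at least 1 window (35.7%): Eef2, Eef2k, Eif3a, Eif4a1, Eif4e, Eif4g1, Eif4h, Eif5a, Mknk1 and Rheb. Among all genes tested that have such a window, 1269 of 10951 held it (11.6%). By window, 13 of 39 windows of the members held it (33.3%), against 7.15% of all 32851 windows of that length. Those windows include genes not tested here, and a gene with several windows counts more than once. The genes compared were not matched for base composition, and a match of letters is not a binding site. The following stretches of 30 bases show the motif in capitals upstream of the annotated start of its window, 5′ to 3′ on the strand of the gene. They are from genes of the cap-binding complex, elongation and the mTOR switch.
Eif4e, chr3:138527192-138527221, + strand: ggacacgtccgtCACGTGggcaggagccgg
Eif4g1, chr16:20672661-20672690, + strand: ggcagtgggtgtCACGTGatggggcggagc
Eif4a1, chr11:69672595-69672624, - strand: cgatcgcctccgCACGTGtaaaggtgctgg
Eef2, chr10:81176576-81176605, + strand: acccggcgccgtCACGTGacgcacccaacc
Eef2k, chr7:120842788-120842817, + strand: cccggggacggcCACGTGagcccgggcgtg
Rheb, chr5:24842440-24842469, - strand: gccgcgcgcggtCACGTGggtgtgttgttg
Counted from the annotated start of its window, the motif in these stretches began between position -189 (Eif4a1) and position -31 (Eef2k). A gene can have more than 1 annotated start. The RefSeq spans of Eif4e and Eef2k begin at 138526191 and 120842642, before the stretches printed, so in these genes the motif lies inside the span. Matches not printed were a further one in Eif4e at -228, a further one in Eif4g1 at 15, after the start, and one in Eif4h at -96, besides those of Eif3a, Eif5a and Mknk1. The 10 genes with the motif had a median log2 fold change of -0.0088 (from -0.13 to 0.11), and the 18 matched genes without it one of -0.027.

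Of the 8 genes of the cap-binding complex, 2 were higher and 6 lower in KO, with log2 fold changes from -0.11 to 0.052. Eif4e, the cap-binding protein, measured 129, 134 and 96.0 CPM in KO libraries 14, 16 and 18, and 131, 134 and 114 CPM in WT libraries 13, 15 and 17. Its lowest level was in KO library 18, and the genotypes overlapped (log2 fold change -0.080, SE 0.17). Eif4g1, the main scaffold of the complex, stood at 151, 136 and 185 CPM in KO libraries 14, 16 and 18, against 155, 152 and 149 CPM in WT libraries 13, 15 and 17. The WT libraries of Eif4g1 lay close together, and the KO libraries lay on both sides of them (log2 fold change 0.052, SE 0.15). Eif4g2, a scaffold that lacks the eIF4E-binding site, measured 723, 666 and 447 CPM in the 3 KO libraries in the same order, and 686, 706 and 591 CPM in the 3 WT libraries. Eif4g3, the paralog of Eif4g1, was at 57.4, 51.0 and 84.1 CPM in the KO libraries and 57.6, 62.5 and 75.1 CPM in the WT libraries. For Eif4g2 KO library 18 was the lowest of all 6, and for Eif4g3 it was the highest.

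The helicase genes and their helpers lay closer together in the KO libraries than the scaffold genes. Eif4a1, the helicase gene of most dividing cells, averaged 391 ± 14.5 CPM in KO and 393 ± 30.9 CPM in WT (SD, n = 3 each, as for all means below). Eif4a2, its paralog that is abundant in brain, averaged 457 ± 16.7 CPM in KO and 466 ± 48.5 CPM in WT. The log2 fold changes of both helicase genes were close to 0, at -0.0044 (SE 0.13) and -0.030 (SE 0.14). Eif4b and Eif4h, which stimulate the helicase, averaged 97.0 ± 2.15 and 334 ± 22.5 CPM in KO, against 98.6 ± 14.2 and 322 ± 5.48 CPM in WT. In all 4 of these genes the genotypes overlapped.

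The genes of the 4E-BP proteins, which hold eIF4E away from eIF4G until mTOR phosphorylates them, were both measured. Eif4ebp2, the form that is prominent in brain, stood at 26.9, 25.8 and 26.8 CPM in KO libraries 14, 16 and 18, and 26.3, 24.6 and 30.5 CPM in WT libraries 13, 15 and 17. The KO libraries of Eif4ebp2 lay within the range of WT (log2 fold change -0.032, SE 0.14). Eif4ebp1 stood at 12.8, 11.1 and 11.4 CPM in the KO libraries, against 12.2, 8.33 and 12.2 CPM in the WT libraries. WT library 15 was the lowest, and without it the log2 fold change of Eif4ebp1 changed sign, to -0.039. Mknk1 and Mknk2 encode the MNK kinases, which phosphorylate eIF4E on the scaffold eIF4G. Mknk1 averaged 20.4 ± 4.24 CPM in KO and 20.4 ± 3.24 CPM in WT. Mknk2 averaged 27.6 ± 0.713 CPM in KO and 25.3 ± 2.68 CPM in WT, with a log2 fold change of 0.13 (SE 0.14).

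Genes of the 43S complex, the small ribosomal subunit with its initiator transfer RNA, had 1 member higher and 5 lower, from -0.12 to 0.089 on the log2 scale. Eif2s1 encodes the eIF2 subunit that stress kinases phosphorylate, and it averaged 42.2 ± 7.03 CPM in KO and 43.5 ± 3.52 CPM in WT. Eif2s2, the beta subunit of eIF2, measured 66.6, 66.6 and 45.8 CPM in KO libraries 14, 16 and 18, against 58.0, 69.0 and 67.8 CPM in WT libraries 13, 15 and 17, with KO library 18 the lowest of the 6. Eif3a, Eif3b and Eif3c encode core subunits of eIF3, which joins the small subunit to the cap complex. Their means were 43.6 ± 7.23, 44.3 ± 9.74 and 162 ± 29.3 CPM in KO, against 44.4 ± 7.20, 46.1 ± 5.03 and 176 ± 24.7 CPM in WT. Within KO, library 16 was the lowest and library 18 the highest for all 3 eIF3 genes. Eif5, which makes eIF2 hydrolyse its GTP, was lowest in library 18, with 238, 213 and 166 CPM in KO libraries 14, 16 and 18. In WT libraries 13, 15 and 17 Eif5 was at 189.6, 198 and 193 CPM, inside the KO range.

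Among the elongation genes, Eef1a1 was the 1 gene with lower levels in every KO library than in every WT library. Eef1a1, which encodes the factor that delivers transfer RNA to the ribosome, measured 2521, 2505 and 2417 CPM in KO libraries 14, 16 and 18, and 2641, 2776 and 2700.2 CPM in WT libraries 13, 15 and 17. The gap was small, a log2 fold change of -0.13 (SE 0.13, 95% interval for the fold 0.749 to 1.12), and it did not pass (edgeR quasi-likelihood unadjusted p = 0.353, adjusted p = 1.00). Its exact permutation p of 0.1 is the smallest that 3 libraries against 3 can give. Eef1a1 has many near-identical pseudogenes, among which reads could be split, so its level is uncertain. Eef2, the factor that moves the ribosome along the message, stood at 785, 716 and 989.95 CPM in KO libraries 14, 16 and 18, against 829.9, 1006 and 896 CPM in WT libraries 13, 15 and 17. KO library 18 reached the WT range, and libraries 14 and 16 lay below it (log2 fold change -0.13, SE 0.16). Eef2k encodes the kinase that inactivates eEF2, and measured 47.4, 44.9 and 43.02 CPM in the KO libraries and 47.2, 40.3 and 37.8 CPM in the WT libraries. The genotypes of Eef2k overlapped through WT library 13 (log2 fold change 0.11, SE 0.13).

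The remaining elongation genes and Pabpc1 overlapped between genotypes. Eef1b2 and Eef1g, subunits of the exchange factor that reloads eEF1A with GTP, averaged 143 ± 23.5 and 319.6 ± 17.4 CPM in KO, against 148 ± 6.53 and 306 ± 5.79 CPM in WT. Eif5a, which helps the ribosome past difficult stretches, averaged 300.1 ± 26.9 CPM in KO and 293 ± 24.1 CPM in WT. Pabpc1, the protein on the poly(A) tail that binds eIF4G, measured 47.5, 30.4 and 35.7 CPM in KO libraries 14, 16 and 18, and 33.4, 41.9 and 41.5 CPM in WT libraries 13, 15 and 17. KO library 14 was the highest and KO library 16 the lowest of the 6 for Pabpc1.

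In the mTOR complex and its switch, Rhebl1 was higher in every KO library than in every WT library, while Rheb, Mtor, Rptor, Tsc1 and Tsc2 overlapped. Rhebl1 encodes a small GTPase related to Rheb and reported to activate mTOR signalling in cultured cells. It measured 4.40, 5.49 and 4.84 CPM in KO libraries 14, 16 and 18, and 1.36, 1.90 and 2.68 CPM in WT libraries 13, 15 and 17. These levels rest on few reads, 54, 39 and 125 counts in the KO libraries and 32, 48 and 70 counts in the WT libraries. The means were 4.91 ± 0.547 CPM in KO and 1.98 ± 0.662 CPM in WT, with a fitted level 2.46-fold higher in KO (log2 fold change 1.301, SE 0.33; 95% interval for the fold 1.47 to 4.14). Rhebl1 ranked 16 of 14990 genes by p, with an unadjusted p of 0.00382 and an adjusted p of 1.00 (edgeR, quasi-likelihood). Its adjusted p was 0.802 with DESeq2, and the exact permutation p was 0.1. The difference was of like size without KO libraries 14 and 16, which hold the large share of ribosomal RNA reads: the log2 fold change was then 1.31, from 1 KO library. The numbers in the sample titles that read as a month were 5 for libraries 14, 16 and 13 and 6 for the others, and with that number as a covariate the log2 fold change was 1.44.

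Rhebl1 lies on chromosome 15 from 98877760 to 98881497 (GRCm38.p6), between Kmt2d and Dhh, and overlaps neither in the RefSeq annotation. Kmt2d, a histone methyltransferase gene, averaged 20.6 ± 8.21 CPM in KO and 20.002 ± 6.02 CPM in WT, and Prkag1, a subunit of the energy sensor AMPK, averaged 115 ± 5.10 CPM in KO and 107 ± 13.6 CPM in WT. Dhh had counts in 1 of the 6 libraries, WT library 17, and was not tested. Lmbr1l, beyond Dhh, averaged 5.24 ± 2.12 CPM in KO and 3.91 ± 0.557 CPM in WT, with libraries of both genotypes overlapping (log2 fold change 0.41, SE 0.35).

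**Figure D2:**
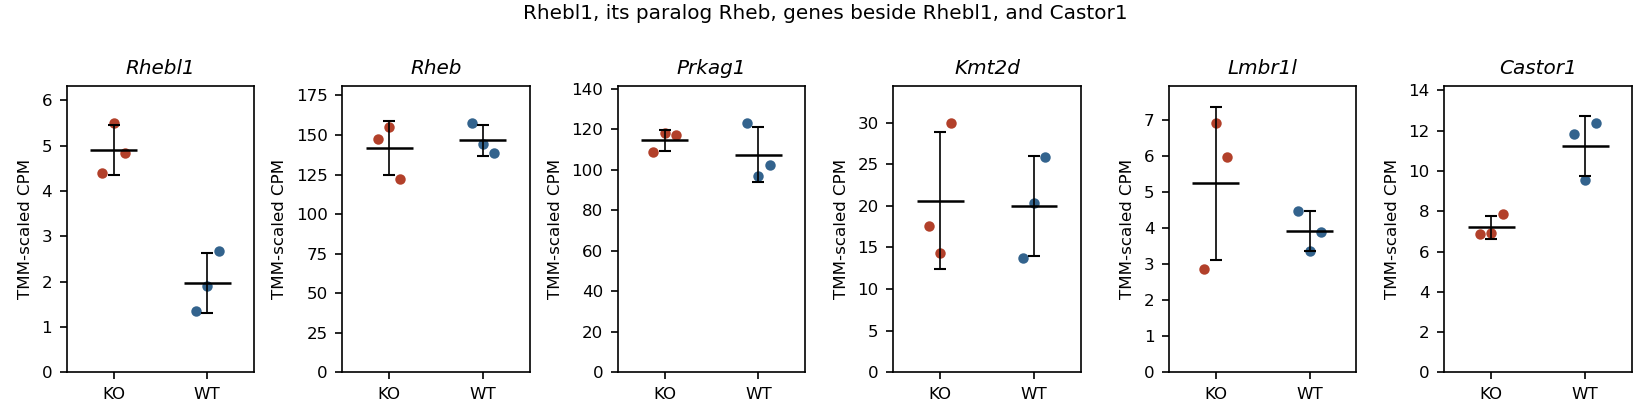
TMM-scaled CPM of Rhebl1, of its relative Rheb, of the tested genes beside Rhebl1 and of Castor1 in each library (points), with mean and SD (bars), 3 KO and 3 WT libraries, each panel from 0 on its own axis. The points of the genotypes do not overlap for Rhebl1, which is higher in KO, or for Castor1, which is lower, and they overlap for the others.

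Rheb itself measured 147, 155 and 122 CPM in KO libraries 14, 16 and 18, and 157, 144 and 138 CPM in WT libraries 13, 15 and 17 (log2 fold change -0.051, SE 0.14). The ratio of Rhebl1 to Rheb within a library does not depend on how libraries are scaled. On the log2 scale this ratio was -5.05, -4.80 and -4.66 in KO libraries 14, 16 and 18, and -6.83, -6.24 and -5.68 in WT libraries 13, 15 and 17. Every KO ratio was above every WT ratio, with a mean difference of 1.41. The exact permutation p was 0.1 (two-sided), the smallest that 3 libraries against 3 can give, and 1.00 adjusted over the 10 gene pairs compared. Rheb differed little between genotypes, so the ratio largely repeats the difference of Rhebl1 and is not separate evidence. These log2 ratios are of counts and not per length, so they compare libraries and not the genes with each other.

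Mtor, the kinase itself, measured 60.0, 47.9 and 82.4 CPM in KO libraries 14, 16 and 18, and 57.2, 66.0 and 69.7 CPM in WT libraries 13, 15 and 17. Both the lowest and the highest level of Mtor were in KO (log2 fold change -0.015, SE 0.20). Rptor, which encodes raptor, the subunit that brings substrates to mTOR, stood at 52.9, 51.3 and 68.6 CPM in the KO libraries, against 49.0, 57.7 and 49.9 CPM in the WT libraries. Its log2 fold change of 0.15 (SE 0.16) was the highest after Rhebl1, and without KO library 18 it was -0.0027. Tsc1 measured 30.8, 28.4 and 32.5 CPM in the KO libraries and 24.2, 29.7 and 33.4 CPM in the WT libraries. Tsc2, its partner that acts on Rheb, measured 40.9, 42.0 and 58.9 CPM in the KO libraries and 42.9, 48.0 and 58.9 CPM in the WT libraries. In both Tsc genes the genotypes overlapped, with log2 fold changes of 0.074 (SE 0.16) and -0.075 (SE 0.19).

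The kinases next to mTOR were each slightly higher on average in KO, within the spread. Akt1, the kinase that inhibits TSC2, averaged 160.4 ± 10.4 CPM in KO and 154 ± 22.2 CPM in WT. Rps6kb1, the main S6 kinase, averaged 23.8 ± 3.78 CPM in KO and 23.2 ± 2.38 CPM in WT. Rps6kb2, its paralog, averaged 8.71 ± 0.858 CPM in KO and 8.03 ± 0.516 CPM in WT. The log2 fold changes of these 3 genes ran from 0.041 to 0.12, and their genotypes overlapped.

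In 32 of the 34 genes, all but Rhebl1 and Eef1a1, the wider within-genotype log2 range (highest minus lowest library) exceeded the difference between genotype means. A range over 3 libraries is often wider than a difference of means in unchanged genes too, and the share over all genes was not computed. The median coefficient of variation over the members was 15.8% in KO and 10.1% in WT, and it was higher in KO for 23 genes. The same values over all genes were not computed. Counts outside the ribosomal RNA features were 10146188 and 6012112 in KO libraries 14 and 16, against 19601657 to 21503369 in the other libraries. Whether this depth played a part in the spread was not tested. KO library 18 was the highest or lowest of the 6 libraries in 16 members. This was so in 13 members each for KO libraries 14 and 16, and in 10, 7 and 9 for WT libraries 13, 15 and 17. Over all genes these counts were not made. Library 18 was the highest in 8 members (Eif4g1, Eif4g3, Eif4h, Eif3a, Eif3b, Mtor, Rptor and Tsc2) and the lowest in 8 (Eif4e, Eif4g2, Eif2s2, Eif5, Eif5a, Eef1a1, Rheb and Rps6kb1). Library 18 is also the KO library with the small share of ribosomal RNA reads. Its neuron marker median was 0.45 above the WT mean on the log2 scale, against 0.020 and -0.21 in KO libraries 14 and 16. In WT libraries 13, 15 and 17 this median was -0.51, 0.16 and 0.41. The astrocyte marker median was 0.11, 0.16 and -0.32 in KO libraries 14, 16 and 18, and 0.19, 0.053 and -0.19 in WT libraries 13, 15 and 17. Of these 3 medians, that of the oligodendrocyte markers had the widest range, at 0.11, -0.68 and 0.70 in KO libraries 14, 16 and 18, and -0.52, -0.0096 and 0.48 in WT libraries 13, 15 and 17, and the summed level of these markers ran from 606 to 1365 CPM in KO and from 657 to 1144 CPM in WT. Of the 8 markers in each of these 3 lists, all 8 had counts in every library. The microglia markers, at low summed levels, had a median of -0.12, -0.33 and -0.32 in KO libraries 14, 16 and 18. In WT libraries 13, 15 and 17 their median was 0.012, 0.029 and -0.018, so the genotypes did not overlap. Of these 8 microglia markers, 1 was higher and 7 lower in KO. Mtor and Eif4g3 were highest in KO library 18, where neuron markers were high and astrocyte markers low. Their lowest level was in KO library 16, at 47.9 and 51.0 CPM. In WT library 13, where the neuron median was lowest, they were at 57.2 and 57.6 CPM. Of the other members highest in library 18, Eif4g1 and Eif3b were lowest in KO library 16. Eif4h and Tsc2 were lowest in KO library 14, and Eif3a and Rptor in WT library 13. Whether the makeup of the pull-down played a part in the levels of the members was not tested.

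**Figure D3:**
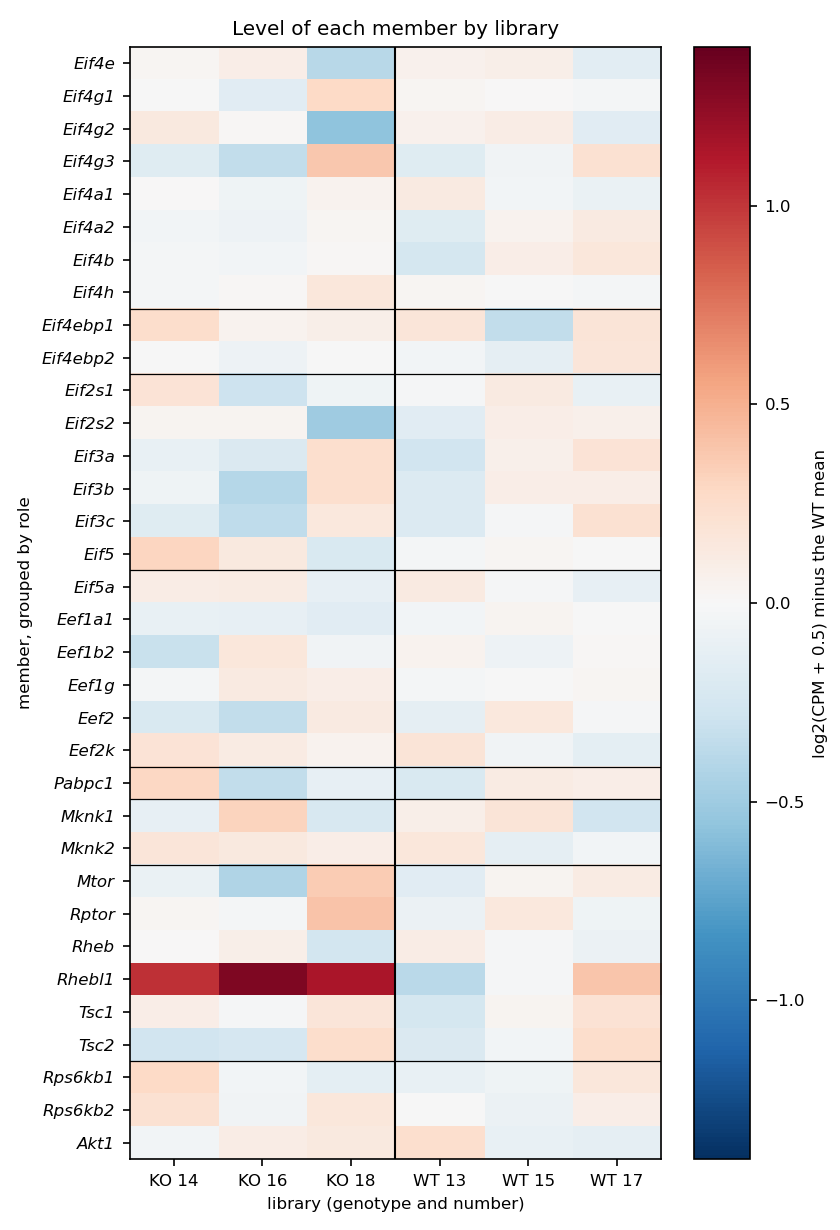
Level of the 34 genes in each library as log2(CPM + 0.5) minus the WT mean of the gene, in colour, with the KO libraries left of the black line and the genes grouped by role. Rhebl1 is the row farthest above the WT mean in each of the 3 KO libraries, while KO library 18 differs from libraries 14 and 16 in genes such as Eif4g2 and Mtor.

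**Figure D4:**
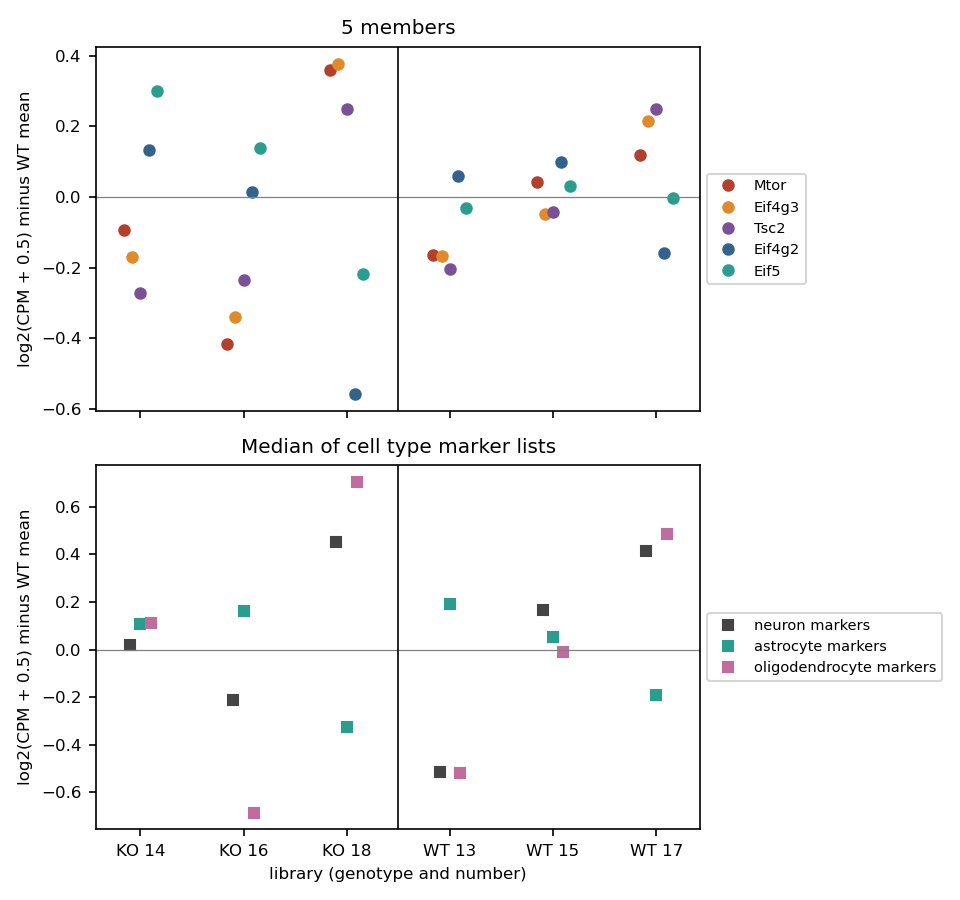
Upper panel, 5 members in each library as log2(CPM + 0.5) minus the WT mean. Lower panel, the median of the same value over the 8 markers of each cell type. In KO library 18 Mtor, Eif4g3 and Tsc2 are high, Eif4g2 and Eif5 are low, and the neuron and oligodendrocyte medians are high.

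Ratios between related genes were compared in 10 pairs. In the 9 pairs other than Rhebl1 over Rheb the genotypes overlapped, with exact permutation p between 0.4 and 1 (two-sided; 1.00 after adjustment over the 10 pairs). The log2 ratio of Eif4ebp2 to Eif4e, the inhibitor to its target, averaged -2.16 ± 0.28 in KO and -2.22 ± 0.28 in WT. For Eif4a2 to Eif4a1 the averages were 0.22 ± 0.020 in KO and 0.25 ± 0.27 in WT. The ratio of Eif4g2 to Eif4g1 stood at 2.25, 2.29 and 1.28 in KO libraries 14, 16 and 18, against 2.15, 2.22 and 1.99 in WT libraries 13, 15 and 17. KO library 18 was the lowest of the 6 in this ratio, and the other 5 lay close together. For Tsc1 to Tsc2 the averages were -0.61 ± 0.23 in KO and -0.78 ± 0.075 in WT.

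Other genes of the pathway, 124 in 7 lists, gave 122 genes that could be tested, of which 56 were higher and 66 lower in KO. None passed in edgeR's quasi-likelihood test, nor in DESeq2 (0 of 124), and 1 was at an unadjusted p under 0.05 in each (0.820% by edgeR, beside the 1.77% of all genes given above). That gene was Castor1, listed in the count table as Gatsl3, which encodes a sensor that holds mTOR back when arginine is scarce. Castor1 measured 6.85, 6.90 and 7.85 CPM in KO libraries 14, 16 and 18, and 11.8, 9.56 and 12.4 CPM in WT libraries 13, 15 and 17. Every KO library was below every WT library (log2 fold change -0.64, SE 0.20; unadjusted p = 0.0109 and adjusted p = 1.00, edgeR quasi-likelihood). Ddit4l, an inhibitor of mTOR, was at 18.8, 13.5 and 20.4 CPM in the KO libraries and 19.2, 17.2 and 65.5 CPM in the WT libraries, where library 17 stood above the rest. Of the 39 genes of the mTOR complexes and amino acid sensing, 19 were higher and 20 lower.

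Of the 122 genes, 8 did not overlap between genotypes (6.56%, beside 6.20% of all genes). In KO 6 of them were higher and 2 lower, beside 2.95% of all genes higher and 3.25% lower without overlap. The 8 include 1 initiation factor, higher, and 1 poly(A) or cap partner, lower. The initiation factors not among the members were 9 higher and 20 lower of 29 tested, with a median log2 fold change of -0.077. Smallest in p among them were Eif2b3, a subunit of the exchange factor of eIF2, at 12.6, 8.17 and 14.3 CPM in the KO libraries and 14.9, 14.1 and 16.4 CPM in the WT libraries, and Eif4enif1, the nuclear carrier of eIF4E, with a log2 fold change of 0.17 (SE 0.14). Elongation and termination factors were 7 higher and 3 lower of 10. Pelo, which rescues stalled ribosomes, measured 16.2, 15.3 and 17.3 CPM in the KO libraries and 12.8, 13.1 and 13.01 CPM in the WT libraries, without overlap (log2 fold change 0.33, SE 0.15, unadjusted p = 0.0589 in edgeR's quasi-likelihood test). Eefsec, the elongation factor for selenocysteine, had a log2 fold change of 0.15 (SE 0.17).

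The poly(A) and cap partners were 2 higher and 7 lower of 9. Pabpn1, the nuclear poly(A)-binding protein, and Pabpc4, a cytoplasmic one, had log2 fold changes of -0.31 (SE 0.18) and -0.22 (SE 0.16). Genes of the integrated stress response, through which phosphorylated eIF2 slows initiation, were 7 higher and 3 lower of 10 tested. Ppp1r15a, a phosphatase subunit that restores eIF2, averaged 28.7 ± 2.28 CPM in KO and 24.0 ± 5.26 CPM in WT, and Eif2ak2, the kinase PKR, 12.4 ± 1.95 CPM in KO and 10.1 ± 1.90 CPM in WT. Among the PI3K and AKT genes, 8 were higher and 8 lower of 16. Pik3r2, a regulatory subunit of PI3K, measured 70.6, 76.5 and 82.3 CPM in the KO libraries and 65.4, 58.3 and 64.4 CPM in the WT libraries, without overlap (log2 fold change 0.29, SE 0.13, unadjusted p = 0.0567 in edgeR's quasi-likelihood test). Pik3cd, a catalytic subunit best known from blood cells, had a log2 fold change of 0.55 (SE 0.39). The S6 kinase and MNK partners were 4 higher and 5 lower of 9, with Rps6ka1 at -0.38 (SE 0.28) and Mapk3 at 0.071 (SE 0.13) on the log2 scale. Chosen after their values were seen because their genotypes do not overlap, Ddit4, Flcn and Mlst8 had log2 fold changes of 0.27 (SE 0.15), 0.21 (SE 0.12) and 0.13 (SE 0.12). Ddit4 encodes a stress-induced inhibitor of mTOR, Flcn a regulator of its recruitment to the lysosome, and Mlst8 a subunit of both mTOR complexes.

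The authors' deposited table gives Rhebl1 a log2 fold change of 1.28, an adjusted p of 0.00146 and a mean log2 CPM of 1.78. Of the members, Rhebl1 was the 1 gene of that table at an adjusted p under 0.05, where 0.573% of its 14843 features were (85 features). The counts were deposited as 12 entries, 2 for each library, and the entries of a library differed by about the sampling noise. If the authors' fit took entries as separate samples, its p-values rest on more samples than the 6 libraries used here. The authors' deposited table also differs from the fit used here in the features tested. What accounts for the different adjusted p of Rhebl1 was not tested. The next smallest p-value of a member in the authors' deposited table was 0.236, for Rptor.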

How the data were processed

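RNA bound to tagged ribosomes was sequenced from 6 libraries, each deposited as 2 entries. The authors deposited RSEM expected counts for 52550 features, unscaled per the file headers. The submitters' processing notes name STAR 2.5.3a, RSEM 1.3.0, edgeR and mm10; strand setting and annotation are not stated in these sources. The authors' deposited comparison table gives log2 fold changes, p-values and adjusted p-values, and its direction, knockout over wild type, was read from Fmr1.

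The entries of a library differed by about the sampling noise (median chi-square per feature 0.467 to 0.494, against 2.93 to 18.8 between libraries of 1 genotype, over features with at least 20 counts). They were summed, rounded and counted as 1 sample. Genes were filtered with filterByExpr, which left 14990, scaled by TMM and tested with the quasi-likelihood F test of edgeR 4.0.16 (with limma 3.58.1 under R 4.3.3) and Benjamini-Hochberg adjustment over all of them. The common biological coefficient of variation was 0.261. SEs come from the F statistic and 95% intervals from its total degrees of freedom. DESeq2 1.42.0 was an alternative. Log2 ratios used counts + 0.5 and an exact permutation test. The test was tried on simulated data.

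The members, lists and pairs were chosen with earlier results of these data known. By plan, libraries are given in full for members without overlap between genotypes, members at an unadjusted p under 0.05 and a fixed set of key genes. Those of Eif4g2, Eif4g3, Eif4ebp1, Eif2s2, Eif5 and Pabpc1 are given outside this rule, with their values known. Of the other lists, genes at an unadjusted p under 0.05 and the 2 with the smallest p in each are named. Ddit4, Flcn and Mlst8 are named outside this rule. Alternatives were DESeq2, its size factors, no filter, no ribosomal RNA features, the month number as a covariate, no knockout libraries 14 and 16, and each library left out in turn.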

Additional observations from a re-analysis of the deposited data

How the results depend on the processing

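Over 12 alternatives, 0 members passed the adjusted threshold, and Rhebl1 was at an unadjusted p under 0.05 in all 12. In 11 of them it was the 1 such member. Without KO libraries 14 and 16, which leaves 1 KO library assumed to vary like WT, 2 members were at an unadjusted p under 0.05: Rhebl1 and Eif4g2. The log2 fold change of Eif4g2 was then -0.54. Rhebl1 kept its direction throughout, with a log2 fold change from 1.09 without WT library 13 to 1.58 without WT library 17 and an adjusted p from 0.802 to 1.00. Eef1a1, Eef1g, Eef2k, Mknk2 and Rps6kb2 also kept theirs, and 28 members, all but these 6, reversed under at least 1 alternative. Their changes lie near 0 on the log2 scale, and the causes of the reversals were not tested. The median log2 fold change of the members was 0.029 with the month number as a covariate and 0.079 without KO libraries 14 and 16, and leaving out 1 library at a time moved it between -0.036 and 0.052.

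Eif4a1 reversed with DESeq2, to 0.0023, and with DESeq2's size factors, to 0.0042. With the month number as a covariate the reversed log2 fold changes were Eif4g3 at 0.10, Eif4a2 at 0.032, Eif4b at 0.055, Eif3a at 0.11, Eif3b at 0.059, Eif5a at -0.034, Mtor at 0.10 and Tsc2 at 0.046. Without KO libraries 14 and 16 they were Eif4g3 at 0.40, Eif4a1 at 0.066, Eif4a2 at 0.052, Eif4b at 0.035, Eif4ebp2 at 0.010, Eif3a at 0.25 and Eif3b at 0.26. In the same fit came Eif3c at 0.17, Eif5 at -0.19, Eif5a at -0.096, Eef2 at 0.15, Mtor at 0.38, Tsc2 at 0.26 and Rps6kb1 at -0.12. Among the log2 ratios, Eif4a2/Eif4a1 reached 0.054 within the month numbers and Eif4g3/Eif4g1 reached 0.011 within the month numbers, and Eif4g3/Eif4g1 reached 0.099 and Tsc1/Tsc2 reached -0.077 without KO libraries 14 and 16.

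Leaving out 1 library at a time, the log2 fold changes that reversed ran as follows: Eif4e from -0.17 to 0.057, Eif4g1 from -0.079 to 0.15, Eif4g2 from -0.25 to 0.071, Eif4g3 from -0.26 to 0.12, Eif4a1 from -0.048 to 0.061 and Eif4a2 from -0.11 to 0.034. Further ranges of this kind were Eif4b from -0.14 to 0.054, Eif4h from -0.0049 to 0.088, Eif4ebp1 from -0.039 to 0.20, Eif4ebp2 from -0.088 to 0.059, Eif2s1 from -0.17 to 0.066 and Eif2s2 from -0.21 to 0.036. The ranges continued with Eif3a from -0.17 to 0.080, Eif3b from -0.22 to 0.093, Eif5 from -0.030 to 0.22, Eif5a from -0.019 to 0.11, Eef1b2 from -0.18 to 0.058 and Pabpc1 from -0.23 to 0.092. Next were Mknk1 from -0.19 to 0.095, Mtor from -0.25 to 0.15, Rptor from -0.0027 to 0.23, Rheb from -0.12 to 0.045, Tsc1 from -0.042 to 0.18 and Tsc2 from -0.27 to 0.061. The last were Rps6kb1 from -0.097 to 0.13 and Akt1 from -0.0039 to 0.18. For log2 ratios the ranges were Eif4a2/Eif4a1 from -0.17 to 0.084, Eif4g2/Eif4g1 from -0.35 to 0.15, Eif4g3/Eif4g1 from -0.18 to 0.038 and Eif4ebp2/Eif4e from -0.096 to 0.22. The others were Eif2s2/Eif2s1 from -0.29 to 0.089, Mknk1/Mknk2 from -0.31 to 0.011 and Rps6kb2/Rps6kb1 from -0.028 to 0.15.

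Over all genes, where the quasi-likelihood test called 0 at the adjusted threshold, it called 6 with no filter on low counts, 2 without KO library 18 and 1 without WT library 15, and DESeq2 called 7. No paired analysis was possible because the genotypes share no library number. Rhebl1 had the lowest counts of the 34 members, 32 to 125 per library, which limits the precision of its level. Leaving the ribosomal RNA features out, or applying no filter on low counts, reversed no member, and a pseudocount of 5 reversed no log2 ratio.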
